A study of Mus musculus with 20 samples.

Results

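Interferon-inducible GTPases were described across 4 conditions in mouse dendritic cells grown from bone marrow (BMDCs). The genes were taken by symbol from the deposited count table: Gbp2, Gbp3, Gbp4, Gbp5, Gbp7 and Gbp9, which encode guanylate-binding proteins (GBPs), and Igtp, Irgm1, Irgm2 and Iigp1, which encode immunity-related GTPases (IRGs). These are 10 of the 24421 genes listed, and 9 of them passed the filter on low counts. Iigp1 did not pass it and was not tested. Bone marrow of 5 mice (A to E) was cultured in GM-CSF (40 ng/mL) for 8 days, and every mouse gave 1 bulk RNA-seq library to each condition, 20 libraries in all. The study asked how a BET bromodomain inhibitor alters the response of these cells to IgG immune complexes.

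The conditions were DMSO Ova (ovalbumin alone) and DMSO IC (ovalbumin-containing IgG immune complexes), both in 5% DMSO per the labels. The others were iBET Ova (I-BET151 at 3.3 uM and ovalbumin) and iBET IC (I-BET151 at 3.3 uM and the immune complexes). Each condition lasted 4 hours. I-BET151, written iBET here, blocks the bromodomains through which BET proteins bind acetylated histones. The study's methods name wild-type C57BL/6 mice beside several transgenic lines and Fcgr2b-deficient mice, and neither they nor the labels say which genotype, strain or age of mouse gave these libraries. Labels and methods differ on whether iBET was added together with the stimulus or before it, and the labels give no DMSO content for the iBET cultures. The methods name 5% DMSO only for the solution injected into mice, so the DMSO content of the cultures is uncertain. Any difference in DMSO content between these cultures cannot be told apart from the effect of iBET. GM-CSF cultures of bone marrow hold macrophage-like cells beside dendritic cells, and the labels say that the cells were sorted into lysis buffer, naming no gate, whereas the methods describe lysis without a sort.

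GBPs and IRGs are large and medium-sized GTPases whose genes are switched on by interferons, above all interferon-gamma, through IRF1 and other transcription factors. They are known for coating the membranes of vacuoles that hold intracellular bacteria or parasites, and GBPs also for aiding inflammasome activation. Irgm1, Irgm2 and Igtp (also called Irgm3) belong to the regulatory IRGs, which hold effector IRGs such as Iigp1 inactive on the cell's own membranes.

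Totals ranged from 16447491 to 29245150 counts per library (median 21764663). Levels are given as CPM (each gene's counts scaled to a common library total) after TMM scaling, which sets libraries of different depth and composition on 1 scale, and 3 counts, taken as the floor of detection, came to 0.103 to 0.182 CPM. Dendritic cell markers were present, with 9 of 9 tested and a summed level of 4732 to 7681 CPM in DMSO Ova, but their levels differed widely. Itgax, which encodes CD11c, was at 1962 ± 187 CPM (SD, n = 5) in DMSO Ova, and Cd74, the MHC class II invariant chain, at 2661 ± 735 CPM. The lowest of the list were Flt3 (3.03 ± 1.76 CPM), Dpp4 (17.0 ± 11.2) and Zbtb46 (24.5 ± 11.1), named after their values were seen. Macrophage markers were also present, with 7 of 7 tested and a summed level of 1443 to 2138 CPM in DMSO Ova. Summed T and NK cell markers reached at most 1.55 CPM in any library and B cell markers at most 0.772 CPM, and no gene of either list was abundant enough to test. Neutrophil markers summed to between 12.6 and 52.7 CPM, and mast cell and basophil markers to between 7.96 and 34.9 CPM. Brd2, which encodes a BET protein, was at 229.6 ± 23.1 CPM in DMSO Ova and at 1205 ± 68.1 CPM in iBET Ova (log2 fold change 2.39, adjusted p = 1.09e-14 by edgeR's quasi-likelihood test).

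The genes lie in clusters, given here from GENCODE M21 on GRCm38. Gbp5 (142493978 to 142522344), Gbp7 (142530342 to 142550149), Gbp3 (142560026 to 142573209) and Gbp2 (142620602 to 142638008) follow each other on the + strand of chromosome 3. Gbp9 (105077630 to 105139539) and Gbp4 (105115767 to 105139586) overlap on the - strand of chromosome 5. Irgm1 (48861968 to 48871683, - strand) and the overlapping pair Igtp (58199556 to 58207591) and Irgm2 (58199618 to 58222782), both on the + strand, are on chromosome 11. Exons of Igtp and Irgm2 share 162 bases, and those of Gbp9 and Gbp4 share 60 bases. Gbp8, which the count table also lists, shares 60 exon bases with Gbp9 and 61 with Gbp4. How reads in such shared bases were counted is not given in the sources used here, so the split of reads among the genes of each group is uncertain. Gbp7 shares 637 exon bases with the pseudogene Gm43802, which the count table does not list.

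Promoters are shown because these genes are defined by their response to interferon, and 2 motifs were sought in them on both strands: the core of the interferon-stimulated response element (ISRE), GAAANNGAA, and the gamma-activated site (GAS), TTCNNNGAA. RefSeq promoters (GRCm38.p6, 250 bases before and 50 after the annotated start of transcription) were found for 7 of the genes, with 2 starts for Gbp3, and Gbp4 and Gbp9 had none in the table. The RefSeq start of Irgm2 lies downstream of Igtp, whereas its GENCODE start lies within Igtp. An ISRE core was present in 7 of these 7 genes, against 8.56% of 32851 promoters of all genes. A GAS was present in 4 (8.3% of all promoters), and the same 4 held both motifs (1.07% of all promoters). These 4 are printed 5′ to 3′ in the direction of transcription, with every motif match in capitals.
Gbp5 (chr3:142496684-142496983, + strand): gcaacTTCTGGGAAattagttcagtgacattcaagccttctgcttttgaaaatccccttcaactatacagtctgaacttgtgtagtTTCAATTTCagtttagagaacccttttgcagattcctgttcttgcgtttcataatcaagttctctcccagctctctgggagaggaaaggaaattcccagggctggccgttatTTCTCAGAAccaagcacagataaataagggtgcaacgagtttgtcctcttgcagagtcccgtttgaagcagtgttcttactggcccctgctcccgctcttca
Gbp7 (chr3:142530086-142530385, + strand): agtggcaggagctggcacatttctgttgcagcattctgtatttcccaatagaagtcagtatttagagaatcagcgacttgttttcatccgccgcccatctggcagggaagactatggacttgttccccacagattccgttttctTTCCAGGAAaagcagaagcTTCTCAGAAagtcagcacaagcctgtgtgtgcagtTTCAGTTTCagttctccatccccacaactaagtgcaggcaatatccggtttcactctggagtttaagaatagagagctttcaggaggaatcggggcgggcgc
Igtp (chr11:58199306-58199605, + strand): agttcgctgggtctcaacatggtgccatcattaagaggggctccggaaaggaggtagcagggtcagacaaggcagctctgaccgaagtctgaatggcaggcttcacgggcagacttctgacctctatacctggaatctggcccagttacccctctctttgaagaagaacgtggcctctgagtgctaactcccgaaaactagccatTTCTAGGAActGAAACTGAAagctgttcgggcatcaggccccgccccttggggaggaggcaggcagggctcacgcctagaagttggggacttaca
Irgm2 (chr11:58214727-58215026, + strand): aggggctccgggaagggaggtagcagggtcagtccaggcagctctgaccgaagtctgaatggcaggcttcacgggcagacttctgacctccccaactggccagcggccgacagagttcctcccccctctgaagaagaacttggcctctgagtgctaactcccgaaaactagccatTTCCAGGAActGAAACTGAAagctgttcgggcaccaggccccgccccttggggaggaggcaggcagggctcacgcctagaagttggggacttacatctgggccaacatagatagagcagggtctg

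In Igtp the GAS lay at -45 to -37 and the ISRE core at -34 to -26, counted in bases from 0 at the first transcribed base. In Irgm2 the same pair lay at -75 to -67 and -64 to -56, so the spacing between both motifs was the same. The last bases of this Irgm2 promoter matched no GENCODE transcript of the gene, so its start and positions are less certain. The same held for the second start of Gbp3. The promoters of Igtp and Irgm2 shared an unbroken stretch of 61 bases, which ran from -11 to 49 in Igtp and from -41 to 19 in Irgm2. Gbp5 and Gbp7 each held 2 GAS matches and 1 ISRE core, and in Gbp7 the ISRE core at -52 to -44 was nearest to the start. The 2 ISRE matches of Gbp3 (-44 to -36 and -38 to -30, at the first of its starts) overlapped each other, as did those of Irgm1 (-30 to -22 and -24 to -16). Gbp2 held 1 ISRE core, at -58 to -50. A match of letters is not evidence of binding, and none was measured here.

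**Figure D1:**
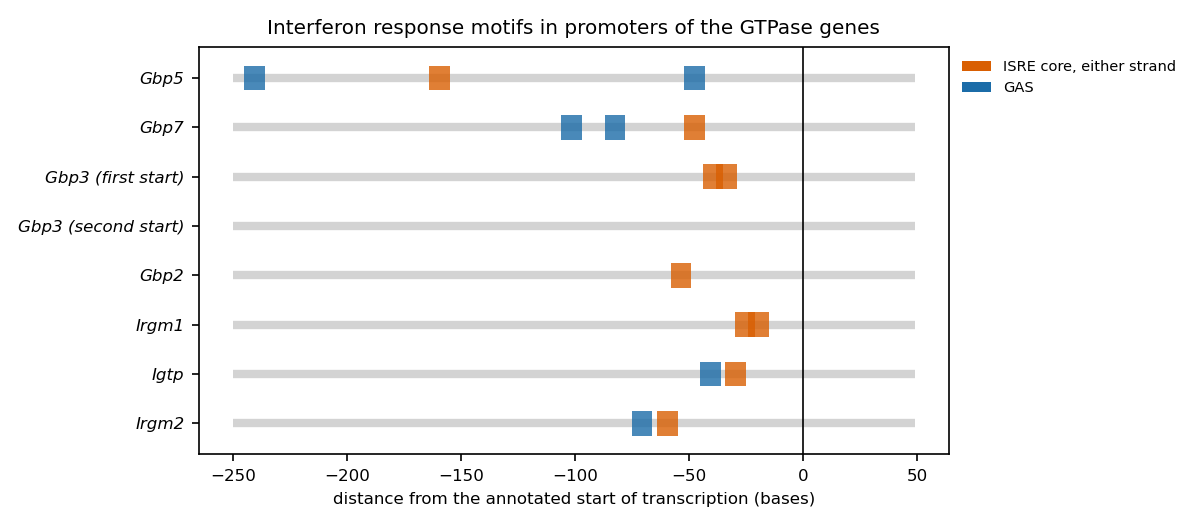
Positions of ISRE core (orange) and GAS (blue) matches in the RefSeq promoters of 7 GTPase genes, drawn as distance in bases from the annotated start of transcription (black line), with the sequence searched in grey. The 4 genes with both motifs are Gbp5, Gbp7, Igtp and Irgm2, and the second start of Gbp3 has no match.

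Before any comparison, the genes spanned a wide range of levels. Per kilobase of exon in DMSO Ova, Gbp2 came first at 88.8 ± 30.3 CPM per kb (SD, n = 5), and its lowest mouse was above every mouse of the next gene. Gbp3 (14.7 ± 4.08) and Gbp7 (13.0 ± 1.89) followed, with overlapping ranges. Igtp (5.29 ± 0.399), Gbp5 (5.07 ± 2.92) and Irgm2 (4.41 ± 0.219 CPM per kb) were neighbours whose ranges overlapped in turn. Irgm1 (3.45 ± 0.383), Gbp9 (1.93 ± 0.657) and Gbp4 (0.632 ± 0.357 CPM per kb) came below them. The order of Igtp, Gbp5, Irgm2 and Irgm1 changed when the longest coding transcript was used as the length. In iBET IC, Gbp2 was again first at 55.4 ± 15.6 CPM per kb, ahead of Gbp7, Gbp3 (1.68 ± 0.309) and Irgm2 (1.68 ± 0.345), and Gbp4 was the lowest tested gene at 0.165 ± 0.0762 CPM per kb.

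Iigp1, an effector IRG, was close to absent, with 12 counts in 7 libraries and no more than 3 in any. DMSO Ova libraries held 6 of these counts, DMSO IC 5, iBET Ova 1 and iBET IC 0. All libraries were at or under the floor, so no fold change is given.

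iBET lowered the GTPase genes whether or not immune complexes were present. All 9 tested genes were lower in iBET Ova than in DMSO Ova, and the same 9 were lower in iBET IC than in DMSO IC (adjusted p by edgeR's quasi-likelihood test). Among all 12465 genes tested, 56.6% were called in either direction and 28.9% were called lower with Ova, and 56.1% and 29% with IC. The median log2 fold change of the 9 genes was -1.56 with Ova and -1.35 with IC, beside -0.0029 and -0.0054 over all tested genes. For each of the 9, iBET gave the lower level in 5 of 5 mice whichever stimulus was used, a pattern that 32.2% of all tested genes showed with Ova and 35% with IC. In bulk RNA, fewer cells of a type and less RNA per cell cannot be told apart.

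Gbp3, a member of the chromosome 3 cluster, had the lowest fold change of the 9 with Ova. Its levels in mice A to E were 35.3, 40.8, 42.6, 69.3 and 51.9 CPM in DMSO Ova and 5.57, 4.93, 7.53, 9.32 and 8.20 CPM in iBET Ova. With IC they were 22.9, 21.9, 28.1, 45.6 and 28.9 CPM under DMSO and 5.11, 4.43, 5.28, 7.15 and 5.51 CPM under iBET. The iBET and DMSO libraries did not overlap under either stimulus, and mouse D was the highest in all 4 conditions. Gbp3 fell 6.74-fold with Ova (log2 fold change -2.75, SE 0.227, adjusted p = 4.17e-09 by edgeR) and 5.38-fold with IC (-2.43, SE 0.229, adjusted p = 2.55e-08).

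Gbp5, which promotes assembly of the NLRP3 inflammasome, fell 5.71-fold with Ova and 5.48-fold with IC from levels that differed widely between mice. It was at 12.6, 13.3, 54.9, 43.7 and 43.8 CPM in DMSO Ova and at 3.07, 2.49, 10.1, 7.21 and 6.78 CPM in iBET Ova. With IC the values were 15.6, 13.4, 37.4, 31.9 and 34.1 CPM under DMSO and 2.44, 1.36, 8.12, 5.44 and 7.40 CPM under iBET. Mice A and B were the lowest in every condition, and each iBET library was below every DMSO library of the same stimulus. The log2 fold change was -2.51 (SE 0.511) with Ova and -2.45 (SE 0.517) with IC (adjusted p = 0.000318 and 0.000454 by edgeR).

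Gbp7, reported to take part in assembly of the NADPH oxidase, varied little between mice. Its levels were 69.8, 65.4, 66.4, 91.3 and 71.1 CPM in DMSO Ova and 24.3, 26.7, 24.9, 29.1 and 24.4 CPM in iBET Ova. They were 41.8, 39.7, 43.0, 50.1 and 40.0 CPM in DMSO IC and 19.3, 18.4, 18.4, 20.8 and 18.7 CPM in iBET IC. The conditions were all apart: DMSO Ova was highest, then DMSO IC, then iBET Ova, and iBET IC was lowest. iBET lowered Gbp7 2.81-fold with Ova (log2 -1.49, SE 0.0892, adjusted p = 4.82e-11 by edgeR) and 2.25-fold with IC (log2 -1.17, SE 0.0896, adjusted p = 1.44e-09).

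Gbp2, which is recruited to parasite vacuoles and was the gene of highest level per length here, showed one of the smaller falls. Levels were 163, 147, 219, 338 and 250.1 CPM in DMSO Ova and 96.2, 84.5, 109.8, 154 and 125 CPM in iBET Ova. With IC, mice A to E were at 167, 142, 215, 311 and 221 CPM under DMSO and 121, 101, 134, 205 and 136 CPM under iBET. Each mouse was lower with iBET, but the highest iBET mouse was above the lowest DMSO mouse under both stimuli. The log2 fold change was -0.97 (SE 0.242, adjusted p = 0.00197 by edgeR) with Ova and -0.60 (SE 0.241, adjusted p = 0.0404) with IC. In this fit without a block, the call with IC was lost without mouse A, C or E (adjusted p = 0.0644, 0.135 and 0.124 by edgeR). With the mouse as a replicate block and all mice kept, the log2 fold change with IC was -0.59 (adjusted p = 4.09e-08 by edgeR).

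Gbp4 and Gbp9, the overlapping pair of chromosome 5, were less abundant. Gbp4 was at 4.74 ± 2.68 CPM in DMSO Ova and 1.01 ± 0.477 CPM in iBET Ova (SD, n = 5), a log2 fold change of -2.24 (SE 0.452, adjusted p = 0.000294 by edgeR). With IC its levels overlapped between DMSO (1.48 to 4.53 CPM) and iBET (0.592 to 2.00 CPM). The log2 fold change with IC was -1.35 (adjusted p = 0.0141 by edgeR, and 0.0664 without mouse E). The replicate block over all mice gave -1.32 (adjusted p = 2.41e-06 by edgeR). Gbp9 was also apart with Ova only, at 5.99 to 14.1 CPM under DMSO and 2.63 to 4.23 CPM under iBET (log2 fold change -1.56, SE 0.249, adjusted p = 2.39e-05). Its log2 fold change with IC was -0.86 (SE 0.252, adjusted p = 0.00651 by edgeR).

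The regulatory IRGs fell in every mouse. Irgm1 was at 21.4, 20.1, 16.5, 22.4 and 19.7 CPM in DMSO Ova and at 8.08, 5.86, 5.83, 7.70 and 6.15 CPM in iBET Ova. With IC it was at 30.0, 23.0, 24.4, 24.0 and 21.2 CPM under DMSO and at 8.33, 6.40, 7.40, 8.68 and 5.67 CPM under iBET. No iBET library reached the lowest DMSO library, and the log2 fold change was -1.57 (SE 0.130, adjusted p = 4.37e-09 by edgeR) with Ova and -1.74 (SE 0.129, adjusted p = 9.17e-10) with IC.

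Igtp was at 10.6, 9.78, 11.4, 11.6 and 10.1 CPM in DMSO Ova and at 3.88, 3.52, 4.38, 2.97 and 3.93 CPM in iBET Ova. In DMSO IC its levels were 7.53, 8.40, 9.29, 7.33 and 8.08 CPM and in iBET IC 2.89, 2.16, 2.54, 2.62 and 2.00 CPM. The conditions did not overlap, and the log2 fold change with iBET was -1.52 (SE 0.112, adjusted p = 8.52e-10 by edgeR) with Ova and -1.73 (SE 0.115, adjusted p = 2.18e-10) with IC. Its neighbour Irgm2 went from 16.3 ± 0.807 to 8.45 ± 0.980 CPM with Ova (log2 fold change -0.95, SE 0.114) and from 14.9 ± 0.737 to 6.21 ± 1.27 CPM with IC (-1.25, SE 0.115), without overlap of the groups (adjusted p = 6.81e-07 and 1.82e-08 by edgeR).

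Across the set, the DMSO and iBET libraries were apart for 8 of the 9 genes with Ova (all but Gbp2) and for 6 with IC (all but Gbp2, Gbp4 and Gbp9), beside 19.5% and 21.6% of all tested genes that were apart and lower. Expression of some macrophage markers was also lower with iBET: 3 of 7 were called lower and 1 higher under each stimulus, and their summed level was 1052 to 1478 CPM in iBET Ova against 1443 to 2138 CPM in DMSO Ova. With the replicate block 4 of the 7 were lower and 1 higher. Of all 12465 tested genes, 3608 were called lower and 3449 higher with Ova, and 3612 and 3378 with IC. The block called 4385 of them lower and 4175 higher with Ova, and 4408 and 4065 with IC. Of 9 dendritic cell markers 2 were called lower under each stimulus, and 6 with the block, which also called 1 higher with Ova and 2 with IC. The sum of these markers was 4732 to 7681 CPM in DMSO Ova and 4892 to 7802 CPM in iBET Ova. The part of these markers in the GTPase result was not tested.

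**Figure D2:**
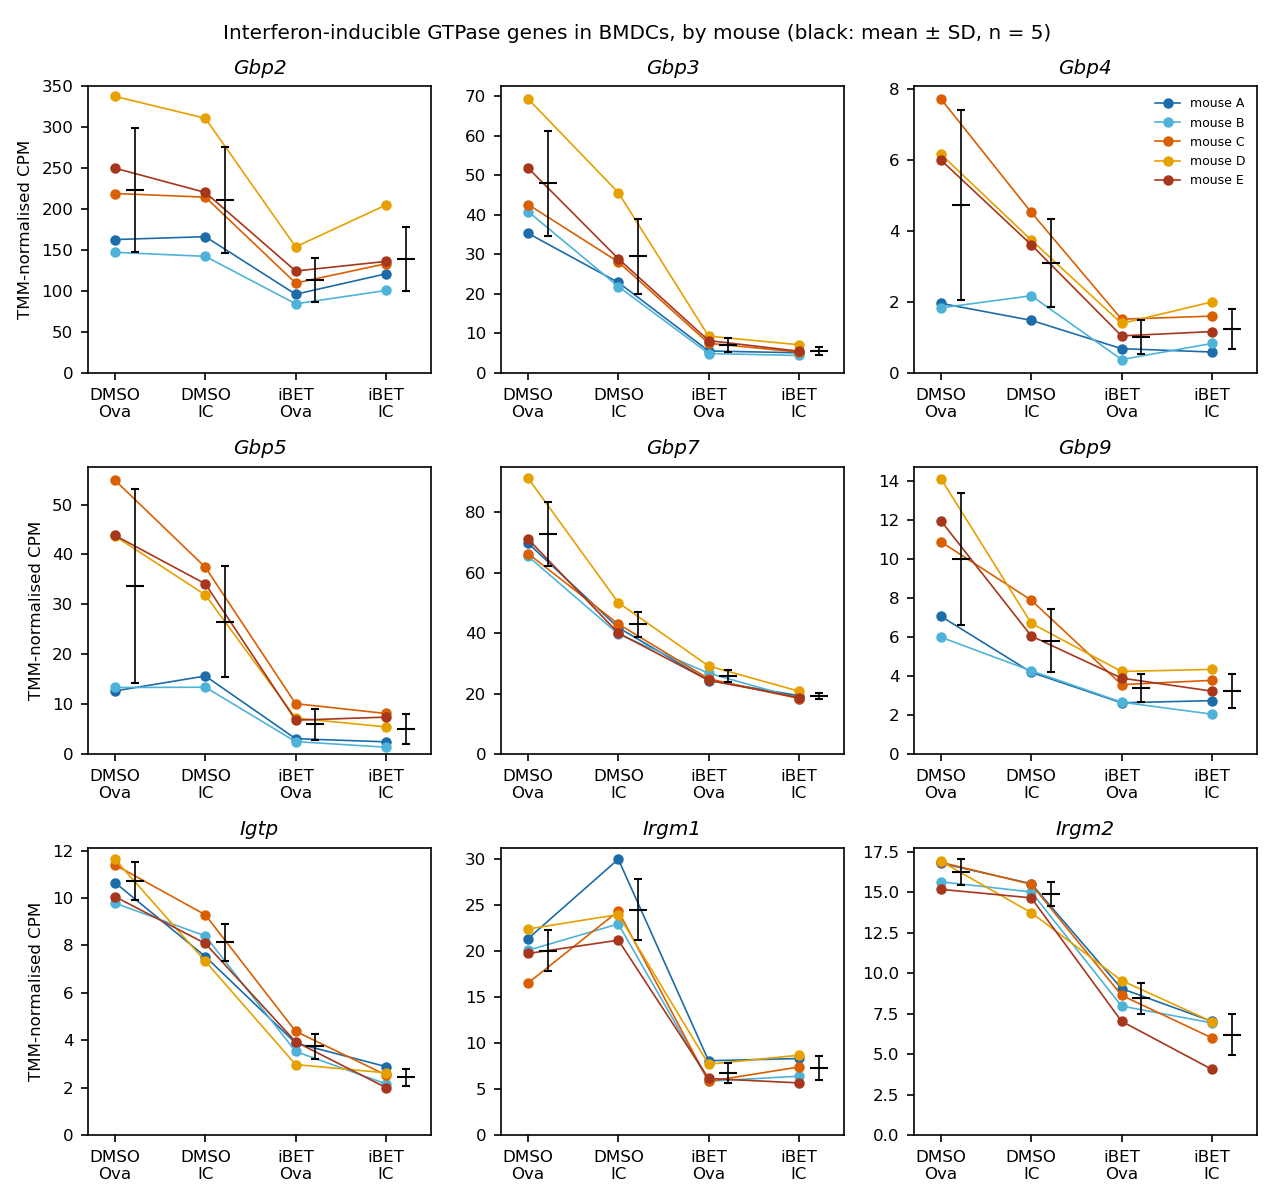
Levels of the 9 tested GTPase genes in TMM-normalised CPM (vertical axes from 0) in the 4 conditions, with 1 line per mouse and the mean ± SD (n = 5) in black. Every line is lower under iBET than under DMSO for the same stimulus, and mice A and B (blue) lie lowest for Gbp2, Gbp3, Gbp4, Gbp5 and Gbp9.

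Some of the genes were lower with immune complexes than with ovalbumin alone. In DMSO-treated BMDCs, 4 of the 9 were lower with IC than with Ova and none was called higher by edgeR, where 20.3% of all tested genes were called and 10.7% were called lower. Gbp7 had the smallest adjusted p, with a log2 fold change of -0.76 (SE 0.0872, adjusted p = 6.61e-06 by edgeR), and its IC and Ova libraries did not overlap, as for 6.41% of all tested genes with the lower level in IC. The others were Gbp9 (-0.78, adjusted p = 0.0262), Gbp3 (-0.70, adjusted p = 0.0219) and Igtp (-0.40, adjusted p = 0.0122), each lower in 5 of 5 mice, as were 18.8% of all tested genes. Gbp9 and Gbp3 lost their calls when mouse C or E was left out (adjusted p of 0.0661 to 0.114 by edgeR), Gbp3 also without mouse B (0.0557), and Gbp9 and Igtp without mouse D (0.102 and 0.0732). The count was then 2 without mouse C, D or E. With the mouse as a replicate block and all mice kept, Gbp3 (adjusted p = 5.66e-07 by edgeR), Gbp9 (9.26e-06) and Igtp (0.00195) were called lower.

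Irgm1 went the other way, at 20.0 ± 2.23 CPM in DMSO Ova and 24.5 ± 3.31 CPM in DMSO IC (SD, n = 5). It was higher with IC in 5 of 5 mice (17.8% of all tested genes were), but the groups overlapped and the log2 fold change of 0.29 (SE 0.123) did not pass the test (adjusted p = 0.105 by edgeR). With the mouse as a replicate block it did (0.29, adjusted p = 0.00625 by edgeR), as did the lower level of Gbp4 (-0.55, adjusted p = 0.00657, and 0.328 without the block). The block called 5 genes lower and 1 higher, in a fit that called 38.1% of all tested genes, 19.8% of them lower and 18.3% higher. Gbp2 (-0.08), Gbp5 (-0.34) and Irgm2 (-0.13 on the log2 scale) were not called by either fit. Irgm2 was lower with IC in 5 of 5 mice, like 18.8% of all tested genes.

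In iBET-treated BMDCs, 3 of the 9 genes were lower with IC, beside 11.8% of all tested genes called and 6.63% called lower. Igtp (log2 fold change -0.61, SE 0.119, adjusted p = 0.00227 by edgeR) and Gbp7 (-0.44, SE 0.0896, adjusted p = 0.00333) did not overlap between iBET Ova and iBET IC, as for 5.46% of all tested genes with the lower level in IC. Irgm2 was 9.05, 7.97, 8.63, 9.55 and 7.03 CPM in iBET Ova and 7.03, 6.93, 6.00, 7.01 and 4.06 CPM in iBET IC. It was lower in each mouse, like 17.4% of all tested genes, with a log2 fold change of -0.44 (adjusted p = 0.0191 by edgeR). Without mouse A, C or D this last call was lost (adjusted p = 0.0553, 0.111 and 0.0742 by edgeR), which left 2 genes. The replicate block over all mice kept the call of Irgm2 (adjusted p = 0.00262 by edgeR). Gbp2 was higher with IC in 5 of 5 mice under iBET, like 16.6% of all tested genes (log2 fold change 0.29, SE 0.241, adjusted p = 0.495 by edgeR). The replicate block called it higher (0.28, adjusted p = 0.00128) and Gbp3 lower (-0.35, adjusted p = 0.0088), which made 4 lower and 1 higher in a fit that called 28.9% of all tested genes (14.7% lower and 14.2% higher).

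**Figure D3:**
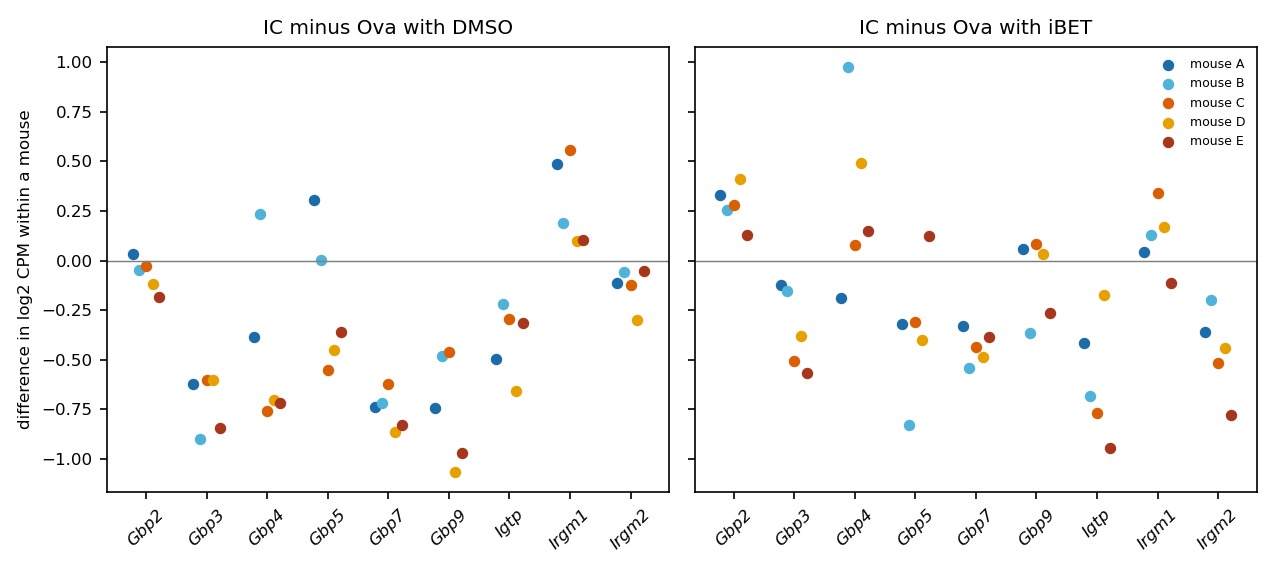
Difference in log2 CPM between IC and Ova within each mouse (points, 1 colour per mouse) for the 9 tested GTPase genes, under DMSO (left) and iBET (right). Gbp3, Gbp7, Igtp and Irgm2 are below 0 in 5 of 5 mice in both panels, and Gbp2 is above 0 in 5 of 5 mice under iBET.

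Whether the iBET effect itself differed between the stimuli was tested as an interaction (the iBET effect with IC minus that with Ova). By edgeR, 0 of the 9 genes passed, and DESeq2 and limma without the block also called 0. At an unadjusted p under 0.05 the edgeR fit had 1 of them, Gbp7 (difference 0.32, adjusted p = 0.982). Over all genes tested 0.0401% were called. The difference was above 0, meaning a smaller fall with IC, in 5 of 5 mice for Gbp2 (0.37), Gbp3 (0.32), Gbp4 (0.89), Gbp7 (0.32) and Gbp9 (0.70), a pattern seen in 5.3% of all tested genes. For Irgm2 it was below 0 in 5 of 5 mice (-0.31), as for 5.54% of all tested genes. With the replicate block, Gbp2 (0.36, adjusted p = 0.0451 by edgeR) and Gbp9 (0.69, adjusted p = 0.039) were called, in a fit that called 0.818% of all tested genes and 0.401% with a difference above 0.

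**Figure D4:**
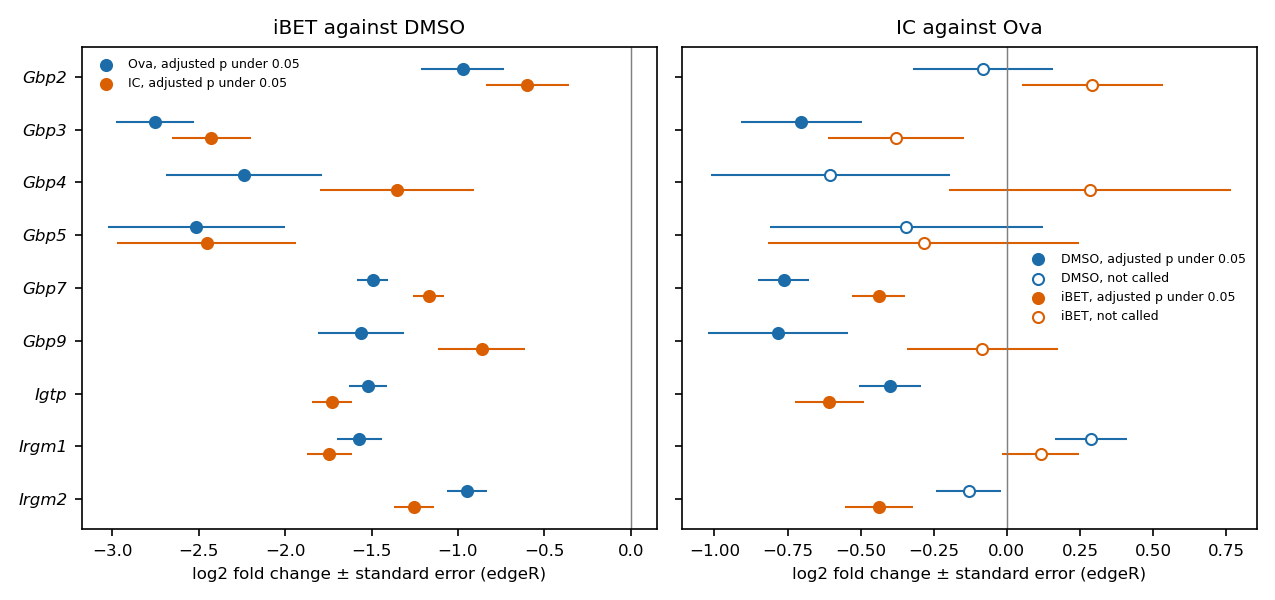
Log2 fold changes (points) with standard errors (bars) from edgeR for the 9 tested GTPase genes, for iBET against DMSO (left) with Ova and with IC and for IC against Ova (right) under DMSO and under iBET. Filled points passed an adjusted p of 0.05 and open points did not, and every point on the left is filled and below 0.

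The genes fell into 2 patterns over the mice. For Gbp2, Gbp3, Gbp4, Gbp5 and Gbp9, mice C, D and E were all above mice A and B in each of the 4 conditions. Condition by condition, 22.7% (iBET Ova) to 28.4% (DMSO Ova) of all tested genes showed this, on counts scaled by library total without TMM. The share of all tested genes that showed it in all 4 conditions jointly was not computed. The mean of mice C, D and E was 3.65 times that of mice A and B for Gbp5 and 3.49 times for Gbp4 in DMSO Ova, and 1.73 times for Gbp2. For Gbp7, Igtp, Irgm1 and Irgm2 this ratio was between 0.815 and 1.13 in the 4 conditions. No label sets mice A and B apart, and this division was made with the values known. Within mice A and B alone the log2 fold change with iBET and Ova was -2.21 for Gbp5, -2.85 for Gbp3 and -0.78 for Gbp2, and mice C, D and E alone gave -2.53, -2.66 and -1.01. The log2 fold change with iBET was below 0 for all 9 genes in each of these sets of mice, under both stimuli. Because the sets were drawn from these values, the spread within them is narrowed, and these fits are no separate support.

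Over the 20 libraries, the genes outside the set whose log2 CPM was most like the mean z-score of the 9 tested genes were Sema4a, a semaphorin (Pearson's r = 0.987), Mdp1 (0.985), Mta3 (0.983), Mical1 (0.983), Tmem173, which encodes STING (0.982), Prr5l (0.981), Rnf180 (0.980) and Kcnk6 (0.979). These libraries share 5 mice and 4 conditions, so the values only describe how alike the patterns were. Within the set, r was lowest between Gbp2 and Irgm2 (0.602) and highest between Gbp3 and Gbp7 (0.963).

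Related GTPase genes were mostly lower with iBET too. Of 15 further genes, listed here as other GBP and IRG genes, 14 were called lower with iBET and Ova and 13 with IC. Their median log2 fold changes were -2.21 and -2.22. Of all tested genes, 28.9% were called lower with Ova and 29% with IC. The list is wider than its name, as it also holds Gvin1. Gvin1, which encodes a very large interferon-inducible GTPase and not a GBP or IRG, was at 1340.1 ± 315 CPM in DMSO Ova and 882 ± 139 in DMSO IC. It was at 701 ± 37.7 in iBET Ova and 411 ± 50.4 CPM in iBET IC (log2 fold change with iBET -0.94 and -1.10). Gm17757 (-0.99 and -1.09), Gm5431 (-2.21 and -2.23) and Gbp8 (-1.43 and -1.06) were also lower under both stimuli, and Gbp8 shares exon bases with Gbp4 and Gbp9. The gene called under neither was F830016B08Rik (0.22 and -0.74), named after its values were seen. Several of these genes have near-identical copies, so their reads may be split between copies. Both dynamin-like antiviral GTPase genes were called lower, Mx1 with log2 fold changes of -1.93 and -1.75 and Mx2 of -1.84 and -1.88.

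Interferon genes themselves gave almost no counts. The 21 ligand genes together had 45 counts in the 20 libraries, 30 of them from Ifnz, and 11 had none. Ifng had 0 counts in every library, which allows at most 0.182 CPM in the shallowest, and Ifnb1 had 3 counts, all in DMSO IC. None could be tested.

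Genes that carry the interferon signal went both ways. Of 9 receptor and kinase genes, 5 were lower and 2 higher with iBET under each stimulus, with a median log2 fold change of -0.55 with Ova and -0.39 with IC. The replicate block called all 9, with 7 lower and 2 higher with Ova, and 6 lower and 3 higher with IC. Of all 12465 tested genes, the fit without the block called 3608 lower and 3449 higher with Ova, and 3612 and 3378 with IC. Among the same genes the block called 4385 lower and 4175 higher with Ova, and 4408 and 4065 with IC. These counts stand beside each list of this paragraph. Jak2, a kinase bound to the interferon-gamma receptor, was at 621 ± 269 CPM in DMSO Ova and 307 ± 83.3 CPM in iBET Ova (log2 fold change -1.02). Jak2 was also called lower with IC. Jak1 (0.17 and 0.19) and the receptor chain Ifnar1 (0.19 and 0.14) were the 2 called higher, and Ifngr1 (-0.14 and 0.12) was called with the block alone (adjusted p = 0.0144 and 0.0319 by edgeR). Of 8 transcription factor genes, 5 were lower under each stimulus and none was called higher (median -0.51 and -0.48), and the block gave 6 lower and 1 higher. Irf9, the subunit that binds the ISRE, had a log2 fold change of -0.51 under both and was called lower. Irf8 (-0.68 and -0.68) and Stat2 (0.39 and 0.51) passed with the block alone. Among 9 genes that restrain the pathway, 4 were higher and 2 lower under each stimulus. Socs3 was higher (1.36 and 1.33) and the phosphatase gene Ptpn6 lower (-1.25 and -1.31), while Irf2bp2 (-0.02 and -0.05) and Ptpn2 (0.12 and 0.12) were not called.

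Other genes known as interferon-gamma targets were split. Of 20, 17 were tested, and 10 were lower with iBET under each stimulus, 1 was higher with Ova and none with IC. The block gave 13 lower with Ova, 14 lower with IC and 1 higher in each. Of all 12465 tested genes, 3608 were called lower and 3449 higher with Ova, and 3612 and 3378 with IC. With the block these counts were 4385 and 4175 with Ova, and 4408 and 4065 with IC. Cd274, which encodes PD-L1, fell from 276 ± 28.1 to 71.8 ± 15.5 CPM with Ova (log2 fold change -1.95) and from 427 ± 59.2 to 138 ± 29.4 CPM with IC (-1.62). Icam1 was also lower (-0.61 and -0.72), while B2m (0.14 and 0.10) and Tapbp (-0.04 and -0.04), which serve MHC class I, were not called. With IC against Ova under DMSO, 4 of the 17 were called higher and none lower, and the replicate block called 6 higher and 3 lower. Of all 12465 tested genes, 1196 were called higher and 1335 lower in this comparison. The block called 18.3% of them higher and 19.8% lower. Cd274 (0.63, adjusted p = 0.00511 by edgeR) and B2m (0.31, adjusted p = 0.0411) were called higher by both fits.

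Inflammasome genes that act downstream of GBPs were lower for 5 of 7 and higher for 1 under each stimulus. Of all 12465 tested genes, 3608 were called lower and 3449 higher with Ova, and 3612 and 3378 with IC. The adaptor gene Pycard went from 132 ± 6.46 to 53.3 ± 4.08 CPM with Ova (log2 fold change -1.31), and Gsdmd, which encodes the pore-forming gasdermin D, from 67.1 ± 4.80 to 33.9 ± 1.97 CPM (-0.98). The DNA sensor gene Aim2 was not called (0.14 with Ova and 0.01 with IC). The 1 called higher was Ninj1, a gene of membrane rupture (0.41 and 0.32). The conjugation genes that target GBPs and IRGs to vacuoles went both ways, with 6 of 14 called higher by iBET and 2 called lower in the Ova cultures, and 5 and 4 in the IC cultures. Map1lc3b was higher (0.52 and 0.50), Gabarap was not called (0.01 and -0.02), and the median of the list was -0.0028 with Ova and 0.022 with IC.

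**Figure D5:**
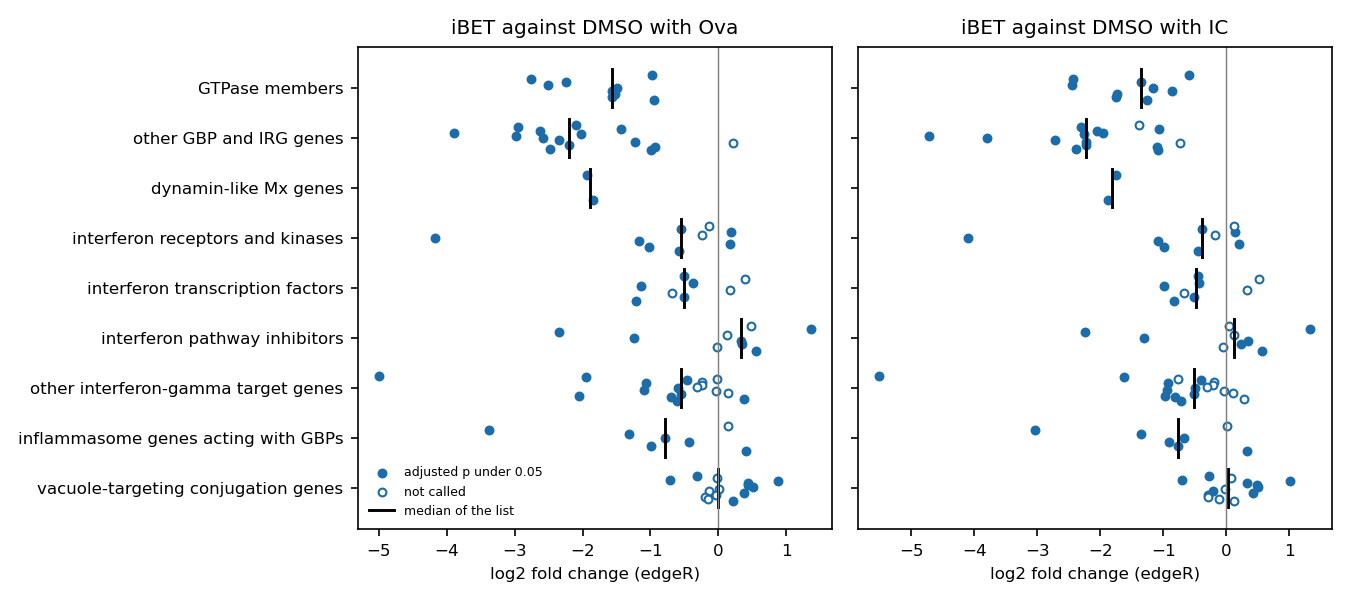
Log2 fold changes from edgeR for iBET against DMSO with Ova (left) and with IC (right), 1 point per tested gene in 9 lists, filled where the adjusted p was under 0.05, with the median of each list as a black bar. The medians of the GTPase genes are -1.56 and -1.35, those of the other GBP and IRG genes -2.21 and -2.22, and those of the conjugation genes -0.0028 and 0.022.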

How the data were processed

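The authors trimmed the reads, aligned them to the mm10 genome (HISAT2) and counted reads per gene (featureCounts), per the submitters' processing notes. Annotation, strand setting and the handling of reads in shared exons are not given in the sources used here. Raw counts were deposited per gene and library. A second table of signal values was deposited by the authors, in which the counts of a library are divided by 1 factor (largest relative spread 1.0e-14). Deposited counts were filtered with filterByExpr, scaled by TMM and fitted over the 4 groups, without a block, in edgeR 4.0.16 (R 4.3.3), whose quasi-likelihood test gave the p values. Adjusted p values (Benjamini-Hochberg) cover 12465 genes, with a threshold of 0.05. Log2 CPM used a prior count of 2. The script was tested on simulated data.

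The same 5 mice served all conditions per the labels, and deviations of same-mouse libraries from their group means correlated at 0.307 to 0.675 in 30 pairs. Pairs of libraries from different mice and groups correlated at -0.576 to 0.557, so the ranges overlapped. Replicates differed by more than counting error (chi-square per degree of freedom at least 12.54 in 40 pairs), so SDs between mice are given, and the median library of 21764663 counts limits the lowest levels. Detection floors cover counting error only.

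Alternatives were the mouse as a replicate block, DESeq2 1.42.0 without and with it, DESeq2 size factors, library size only, 3 surrogate variables (sva 3.50.0), no filter on low counts, only the 10 libraries compared, limma 3.58.1 on log2 of the deposited signal values plus a pseudocount of 1, leaving out every mouse in turn, mice A and B or C, D and E alone, and a log2 change of 1 or more in size. Members and lists were chosen with earlier results of these data known. Named genes were all members, the 4 tested genes of highest mean CPM in a longer list, and the 8 genes most like the members. The single-gene result of 1 gene under this rule is not reported here. Genes named for a small count or as the lowest of a list were chosen after their values were seen.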

Additional observations from a re-analysis of the deposited data

Results flagged for a closer look

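In DMSO Ova, Gbp7 in mouse D was at 91.3 CPM, beside 65.4 to 71.1 CPM in the other 4 mice, a gap of 0.78 of the group's range against a critical value of 0.71 (Dixon's test). Iigp1 was at 0.0418 CPM in iBET Ova mouse E, which is 1 count, with 0 counts in the other 4 libraries of the group. In all, 40 groups of 5 libraries were looked at, and chance flags about 1 in 20 groups.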

How the results depend on the processing

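The iBET calls of the 9 genes were lower under every alternative tried, 7 to 9 of them past the threshold. Mice A to E are replicates 1 to 5. For IC against Ova under DMSO (4 genes), 0 had a log2 change of 1 or more in size, 2 were called from the 10 libraries compared only and 2 from mice A and B only, and leaving out a mouse gave 2 to 4. Under iBET (3 genes) these counts were 0 at that size and 0 in mice A and B only, the replicate block gave 5 without and 5 with DESeq2, and leaving out a mouse gave 2 to 3. The interaction (0 genes) gave 2 with the replicate block and 3 with DESeq2 and the block, and 0 with each mouse left out. Its sign turned for Gbp5 (0.060), to -0.048 and -0.077 with the block in edgeR and DESeq2, -0.19 with surrogate variables, -0.14 in limma, -0.69 in mice A and B, and below 0 without mouse C or E (-0.077 to 0.14 with a mouse left out). Gbp5 in IC against Ova under DMSO was 0.15 in mice A and B only, and Irgm1 under iBET was -0.0030 with surrogate variables. The causes were not tested. The replicate block ended no call of a GTPase gene. Without the filter Gbp2 was not called in iBET IC (adjusted p = 0.0557 by edgeR). Library size only moved the median of all genes to -0.13 for IC against Ova under DMSO and -0.12 under iBET, with 582 genes higher and 2593 lower in place of 1196 and 1335 under DMSO and 313 and 2030 in place of 647 and 827 under iBET, and the signs of the GTPase genes were below 0 as often as before (8 and 6 of 9). Depth limits Iigp1 and the interferon ligands, at or near the floor.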
